A study of Mus musculus with 12 samples.

Results

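Exons that wild-type liver almost always keeps, and that can be left out without breaking the reading frame, were followed here through fasting and refeeding in lipin 1 deficiency. They were chosen by the level of inclusion in refed Lpin1+/+ liver. An event, meaning 1 cassette exon with 1 pair of neighbouring exons, counted as a member when the exon was 28 to 300 bases long, its length was divisible by 3 and mean inclusion over the 3 refed Lpin1+/+ libraries was above 0.9. Inclusion is the length-normalised share of reads on the exon or its junctions, beside reads that skip it, from 0 (always skipped) to 1 (always kept). Reads inside the exon count as kept even where they do not reach a neighbouring exon. Of 28447 events shared by the fasted and the refed tables with at least 10 reads in each of 12 libraries, 6997 (24.6%) met this rule. They lie on 6213 exons of 3525 genes. Because refed Lpin1+/+ inclusion chose the exons, each contrast with that group is described here without a test.

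The liver samples came from male adult Lpin1-/- mice and Lpin1+/+ littermates, all on the BALB/cByJ background, with 3 libraries for each of 4 groups. The Lpin1-/- allele is fatty liver dystrophy (fld), a spontaneous mutation present in every tissue from conception, so fat depots and nerves of these mice lack lipin 1 as well as the liver. Fasted mice of both genotypes were housed singly without food for 16 h. Refed mice went through the same 16 h fast and then had food for 5 h, which also places their livers at a later time of day.

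A cassette exon is left out when the spliceosome joins the exon before it straight to the exon after it. If the missing length is a multiple of 3, the codons downstream are read as before and the protein loses an internal stretch, whereas any other length shifts the frame and commonly brings an early stop codon. The splicing pattern of liver is known to change as the organ matures after birth. Lipin 1 is a phosphatidic acid phosphatase of glycerolipid synthesis that also acts in the nucleus as a transcriptional coactivator.

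5 coding exons are printed as examples, to show what skipping removes from genes described below. The letters are the transcribed strand of the exon, taken from GENCODE M21 transcripts at the GRCm38 coordinates of the deposited events. Capitals mark the first whole codon, so bases before it belong to a codon split with the preceding exon.
Per1, chr11:69104634-69104813, plus strand, exon 17 of 23: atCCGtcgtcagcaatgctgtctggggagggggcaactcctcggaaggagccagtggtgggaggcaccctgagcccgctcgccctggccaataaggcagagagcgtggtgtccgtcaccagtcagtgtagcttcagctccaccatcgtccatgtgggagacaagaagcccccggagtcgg
Dbr1, chr9:99578441-99578521, plus strand, exon 3 of 8: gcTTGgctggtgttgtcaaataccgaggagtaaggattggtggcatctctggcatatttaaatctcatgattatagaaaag
Chd8, chr14:52202144-52202323, minus strand, exon 35 of 37: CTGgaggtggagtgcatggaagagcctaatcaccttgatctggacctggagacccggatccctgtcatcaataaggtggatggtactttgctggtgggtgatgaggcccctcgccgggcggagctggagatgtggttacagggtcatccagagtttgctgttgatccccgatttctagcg
Fyn, chr10:39529437-39529601, plus strand, exon 9 of 14: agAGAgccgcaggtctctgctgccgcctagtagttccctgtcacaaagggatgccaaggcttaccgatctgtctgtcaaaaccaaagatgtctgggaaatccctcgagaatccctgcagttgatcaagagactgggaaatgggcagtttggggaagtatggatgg
Il15ra, chr2:11720013-11720105, plus strand, exon 3 of 7: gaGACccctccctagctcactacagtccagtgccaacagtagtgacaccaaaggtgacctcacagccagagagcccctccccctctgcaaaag

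Chd8 starts on a codon boundary and loses 60 whole codons when skipped. The other 4 exons begin with the last 2 bases of a split codon, so skipping rejoins the parts of a split codon from the flanking exons and the frame continues. Per1 also loses 60 codons, Fyn 55, Il15ra 31 and Dbr1 27. None of the 5 holds an in-frame stop codon. Across all 4226 member exons that were wholly coding in the annotation, 57.5% began on a codon boundary and 1 held an in-frame stop.

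Depth in the member events was high for the kept form and thin for the skipped form. The median member had 340 to 689 reads per library, and a median of 0 to 1 of these were skipping reads, so most calls rest on few reads of the rarer form. Lpin1 itself was at 0.726 to 22.0 RPKM (reads per kilobase of gene, scaled to library size) in the 6 Lpin1+/+ libraries and at 0.0597 or less in the 6 Lpin1-/- libraries. The fasted Lpin1+/+ library numbered 1 held the 22.0, against 0.726 and 1.76 in the other two. All 5 hepatocyte markers (Alb, Apoa1, Ttr, Cps1 and Hnf4a) were present, with a summed level of 31218 to 70723 RPKM, against 29.8 to 221 for 4 Kupffer cell markers, 4.22 to 170 for 2 neutrophil markers and 161 to 1675 for 2 haemoglobin genes. Between fasted Lpin1-/- and fasted Lpin1+/+ liver, 0 of the 26 markers tested over 8 cell types passed adjusted p under 0.05 in limma. The 2 adipose markers were at most 0.255 RPKM in sum, and the pancreatic marker sum at most 0.00842. In these bulk samples, fewer cells of a type and less RNA per cell cannot be told apart.

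Skipping of these exons appeared mainly in fasted Lpin1-/- liver. Averaged over the 6997 events, the skipped share was 1.07%, 1.20% and 1.16% in fasted Lpin1+/+ liver, against 4.07%, 3.60% and 2.85% in fasted Lpin1-/- liver (1 value per library). After refeeding it was 2.03%, 1.72% and 1.76% in Lpin1-/- liver and 0.975%, 1.01% and 0.960% in the Lpin1+/+ libraries that chose the exons. The fasted Lpin1-/- libraries were thus above every other library and the refed Lpin1-/- libraries lay between. The 2 genotypes did not overlap in either feeding state, though the rule holds skipping low in refed Lpin1+/+ liver. Nor did they over all 28447 events, with library means of inclusion of 0.690 to 0.698 (fasted Lpin1-/-) against 0.703 to 0.705 (fasted Lpin1+/+). In the refed state these were 0.700 to 0.701 against 0.706 to 0.707. For mostly included exons that shift the frame, fasted means were 0.957 to 0.973 against 0.989 to 0.990. The libraries are given in the order of the deposited lists, which carry no replicate numbers.

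**Figure D1:**
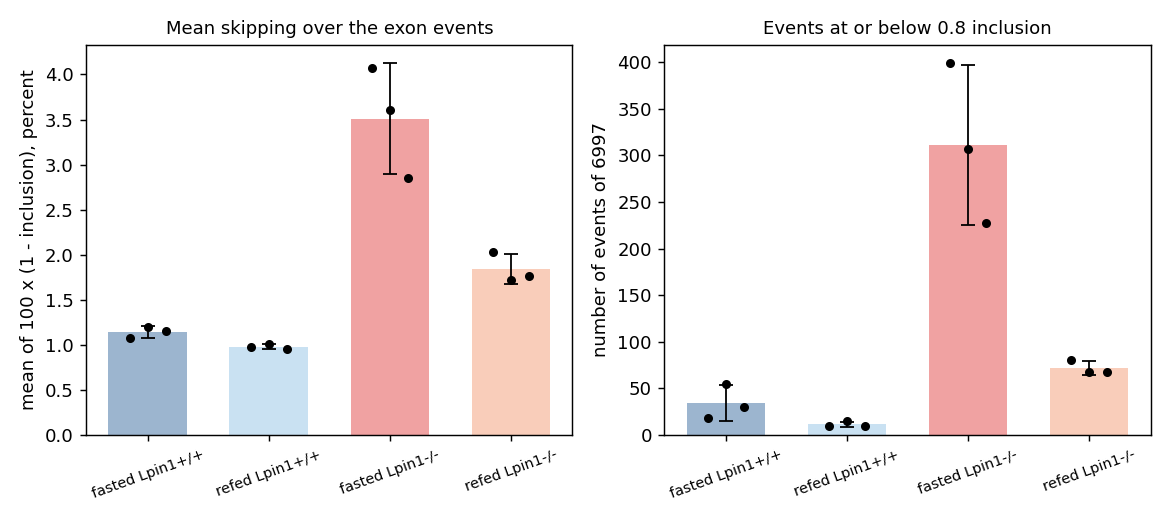
Left, mean skipping in percent over the 6997 member events; right, the number of these events with inclusion of 0.8 or less. Points are the 3 libraries of each group, bars their mean and error bars the SD. Skipping was 2.85% to 4.07% in fasted Lpin1-/- liver and 1.07% to 1.20% in fasted Lpin1+/+ liver.

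The rise came from a minority of exons with large losses and many with small ones. Mean inclusion was 0.9 or less for 132 members in fasted Lpin1+/+ liver, 684 in fasted Lpin1-/- liver and 253 in refed Lpin1-/- liver, and for none in refed Lpin1+/+ liver, where the rule excluded it. The 132 show how many members of a group that did not choose them fall below the threshold without loss of lipin 1. At 0.8 or less there were 11, 266 and 41 members, and at 0.5 or less 0, 27 and 1. Single libraries held 18, 55 and 30 members at 0.8 or less in fasted Lpin1+/+ liver, 399, 307 and 228 in fasted Lpin1-/- liver, 81, 68 and 68 in refed Lpin1-/- liver, and 10, 15 and 10 in refed Lpin1+/+ liver. The median member moved little, from 0.999 in fasted Lpin1+/+ liver to 0.992 in fasted Lpin1-/- liver.

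**Figure D2:**
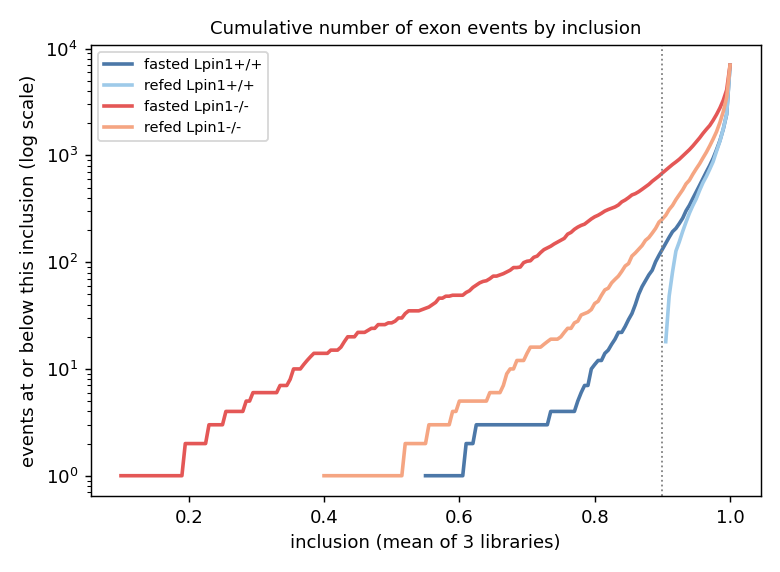
Number of member events (log scale) whose mean inclusion over 3 libraries is at or below the value on the horizontal axis, for the 4 groups. The dotted line marks the 0.9 threshold, at which 684 events lay at or below in fasted Lpin1-/- liver, 253 in refed Lpin1-/- liver and 132 in fasted Lpin1+/+ liver.

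Skipping reads also appeared where fasted Lpin1+/+ liver had none. For 490 members (7.0%), each of the 3 fasted Lpin1-/- libraries had skipping reads and each of the 3 fasted Lpin1+/+ libraries had 0, while the converse held for 47 members (0.672%). Over all 28447 events the same counts were 1390 (4.89%) and 155 (0.545%). Mostly included exons of the same length range that shift the frame had 863 of 10811 (7.98%) and 87 (0.805%), so the members did not stand out from them. In 289 members (4.13%) the 3 fasted Lpin1-/- libraries had skipping reads and all 6 Lpin1+/+ libraries had 0. The share was 2.78% of all events and 4.47% of the mostly included exons that shift the frame. These shares are a description only, since refed Lpin1+/+ inclusion chose the members. A count of 0 here means not seen at this depth, since the 490 had a median of 5.33 skipping reads per fasted Lpin1-/- library. Over all members, total reads in fasted Lpin1-/- liver were a median 0.783 times those in fasted Lpin1+/+ liver.

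Whether inclusion differed between fasted genotypes was asked with a limma model of the kept form over the skipped form, as a log2 ratio. P-values were adjusted by Benjamini-Hochberg over all 28447 events, and adjusted p under 0.05 made a call. Of the members, 1032 (14.7%) were called lower in fasted Lpin1-/- than in fasted Lpin1+/+ liver, on 997 exons of 774 genes, beside 11.3% called lower over all events. Only 21 members (0.300%) were called higher, beside 4.69% of all events. Members start near 1 and have almost no room to rise, so this direction is partly fixed by how they were chosen. The median fall among the 1032 was 0.046 in inclusion and the largest 0.842, and in 860 the 3 fasted Lpin1-/- libraries all lay below the 3 fasted Lpin1+/+ libraries. That is 83.3% of the called members, close to the 83.8% of all events called lower. A fall of at least 0.1 was seen in 324 of the called members (4.63%), beside 3.69% over all events. In 34 of the 1032 the mean was under 1 skipping read in fasted Lpin1-/- liver, beside 86 of all 3210 events called lower. Those calls rest on almost no skipping reads.

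Mostly included exons whose length shifts the frame behaved much alike, with 1872 of 10811 events (17.3%) called lower and 56 higher. Of the 3745 frame-keeping events at or below the threshold, 78 were called lower and 466 (12.4%) higher. Calls toward lower inclusion thus prevailed among mostly included exons of both kinds, and the kinds were not tested against each other.

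Read depth moved with these calls. In fasted Lpin1-/- liver the 1032 events had a median 0.716 times the reads of fasted Lpin1+/+ liver, beside 0.725 for all events called lower. A mean of at least 5 skipping reads there was reached by 688 of the 1032, beside 2235 of all 3210 events called lower. With the reads of each event thinned to its smallest library, an alternative added after the data were seen, 701 members (10.02%) were called lower, beside 7.75% over all events. Leaving out library 1 or library 3 of the fasted Lpin1+/+ list brought the count to 683 or 679. The part of depth in these calls beyond this was not tested.

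**Figure D3:**
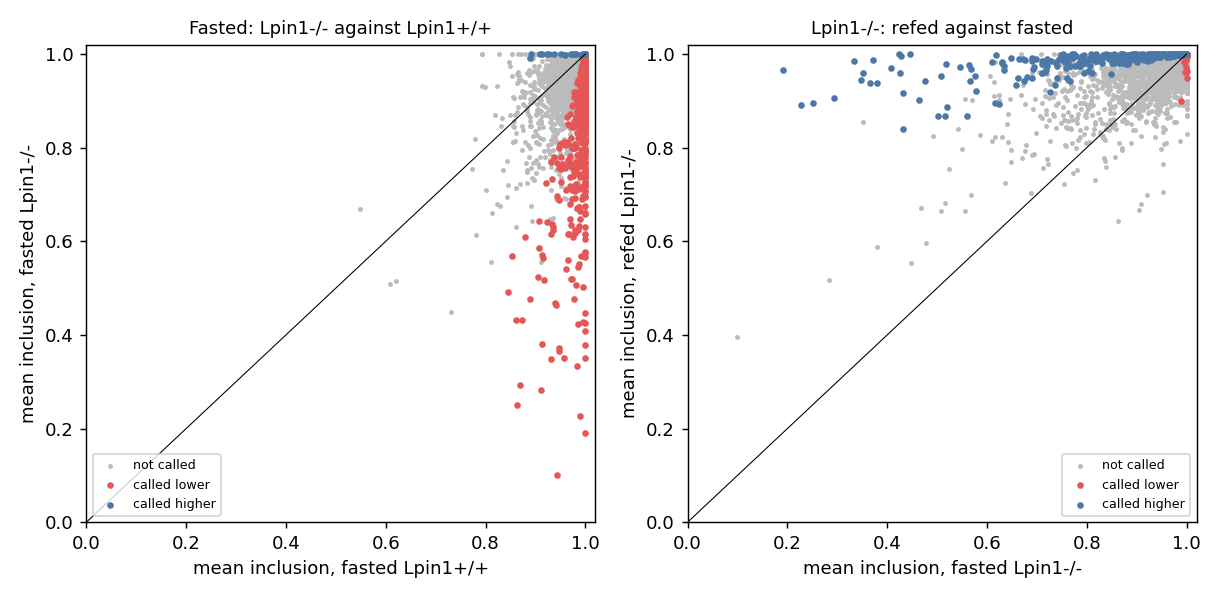
Mean inclusion of each member event, left in fasted Lpin1-/- against fasted Lpin1+/+ liver, right in refed against fasted Lpin1-/- liver. Each point is 1 event, red where called lower and blue where called higher. The left panel holds 1032 red points and the right panel 391 blue points. Events called on very few skipping reads can lie on or near the diagonal.

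Per1, a repressor of the circadian clock, had the second largest fall of the named exons. The exon stood at 1.00, 0.970 and 1.00 in fasted Lpin1+/+ liver and at 0.153, 0.115 and 0.414 in fasted Lpin1-/- liver, whose libraries had 339, 530 and 201 skipping reads. Fasted Lpin1+/+ liver had 0, 1 and 0 skipping reads beside 648, 119 and 17 kept ones, so 1 of its libraries is thin. The groups were far apart, and the log2 ratio fell by 7.37 (SE 1.21, adjusted p = 0.00133, lost with precision weights at adjusted p = 0.141). Refed Lpin1-/- liver was at 0.875, 0.902 and 0.896, and refed Lpin1+/+ liver at 0.927, 0.965 and 1.00. The rise on refeeding passed (adjusted p = 0.0254), though in 11 of 17 alternative fits. The Per1 transcript itself was 2.55 higher on the log2 RPKM scale in fasted Lpin1-/- liver (SE 0.66, limma adjusted p = 0.0201).

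Trmt13, a tRNA methyltransferase, had the largest fall of all named exons, on few reads. Each fasted Lpin1+/+ library was at 1.00, and fasted Lpin1-/- liver was at 0.0513, 0.169 and 0.354, with 16, 17 and 10 skipping reads against 0 in fasted Lpin1+/+ liver. The log2 ratio fell by 7.84 (SE 0.88, adjusted p = 0.00014). Its 168-base coding exon (chr3:116588472-116588639, exon 8 of 12) was back at 1.00, 0.948 and 0.947 in refed Lpin1-/- liver, while the gene's RPKM differed by only 0.09 on the log2 scale between fasted genotypes (adjusted p = 0.757).

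2 further named exons sit in genes that act on RNA. Dbr1 encodes the enzyme that opens intron lariats after splicing. Its inclusion was 1.00, 0.843 and 1.00 in fasted Lpin1+/+ liver and 0.10, 0.450 and 0.549 in fasted Lpin1-/- liver, with 41, 24 and 21 skipping reads in the latter (log2 ratio decreased by 5.77, SE 1.13, adjusted p = 0.00374). Larp4b, an RNA-binding protein of the La-related family, went from 0.891, 0.818 and 0.901 to 0.250, 0.302 and 0.328 (adjusted p = 0.00687). Its kept reads went from 767, 148 and 386 to 22, 61 and 69. Its skipping reads were 20, 7 and 9 against 14, 30 and 30, so the change lay mostly in the kept form. The log2 RPKM difference of Larp4b was -1.22 (SE 0.50, limma adjusted p = 0.117). After refeeding of Lpin1-/- mice, Dbr1 was at a mean of 0.939 ± 0.0585 (SD, n = 3) and Larp4b at 0.907 ± 0.0768 (SD, n = 3). Larp4b was no longer called once reads were thinned (adjusted p = 0.0785), and Dbr1 was not called with precision weights (adjusted p = 0.0616).

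Lrig1 and Rhpn2 were also among the 10 largest falls. Lrig1, a membrane protein that restrains growth factor receptors, started lowest, at 0.808, 0.847 and 0.932 in fasted Lpin1+/+ liver, and reached 0.192, 0.168 and 0.392 in fasted Lpin1-/- liver (adjusted p = 0.00249). Kept reads of Lrig1 went from 292, 193 and 261 to 12, 14 and 49, and skipping reads from 22, 11 and 6 to 16, 22 and 24. Its gene also fell by 1.28 on the log2 RPKM scale (SE 0.23, adjusted p = 0.00382). Rhpn2 fell from a mean of 0.947 ± 0.073 to 0.372 ± 0.036 (SD, n = 3 each, adjusted p = 0.00802 in limma). In both genes no library of one genotype reached the range of the other, which the criteria for naming them required.

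Mllt6, Wipi2 and Helz2 met the same required separation, but their exons have boundaries that GENCODE M21 does not list. Mllt6, a chromatin-associated PHD finger protein, had 0 skipping reads in all 6 Lpin1+/+ libraries and an inclusion of 0.344, 0.272 and 0.438 in fasted Lpin1-/- liver (adjusted p = 0.000895). Wipi2, a phosphoinositide-binding protein of autophagosome formation, likewise had no skipping reads in Lpin1+/+ liver and stood at 0.220, 0.388 and 0.530 in fasted Lpin1-/- liver (adjusted p = 0.000271). Helz2, a helicase that coactivates nuclear receptors, fell from 0.987, 1.00 and 1.00 to 0.523, 0.445 and 0.313 (adjusted p = 8.01e-05). After refeeding, means in Lpin1-/- liver were 0.960 for Mllt6, 0.938 for Wipi2 and 0.996 for Helz2.

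An exon filed under Gm44805 (chr7:19678681-19678818) was the exception among the 10 largest falls. It overlaps Apoc4, an apolipoprotein gene, so its reads cannot be given to either gene with certainty. Its boundaries are also not listed in GENCODE M21. Inclusion was 0.986, 0.768 and 0.979 in fasted Lpin1+/+ liver and 0.215, 0.200 and 0.433 in fasted Lpin1-/- liver (adjusted p = 0.0207). Refed Lpin1-/- liver remained split, at 0.328, 0.291 and 0.933, and its difference from fasted Lpin1-/- liver did not pass the test (adjusted p = 0.504). The fasted call was lost without library 1 or 3 of fasted Lpin1+/+ liver (adjusted p = 0.0848 and 0.0804), without library 1 or 2 of fasted Lpin1-/- liver (0.0684 and 0.0655), and with thinned reads (0.0624).

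**Figure D4:**
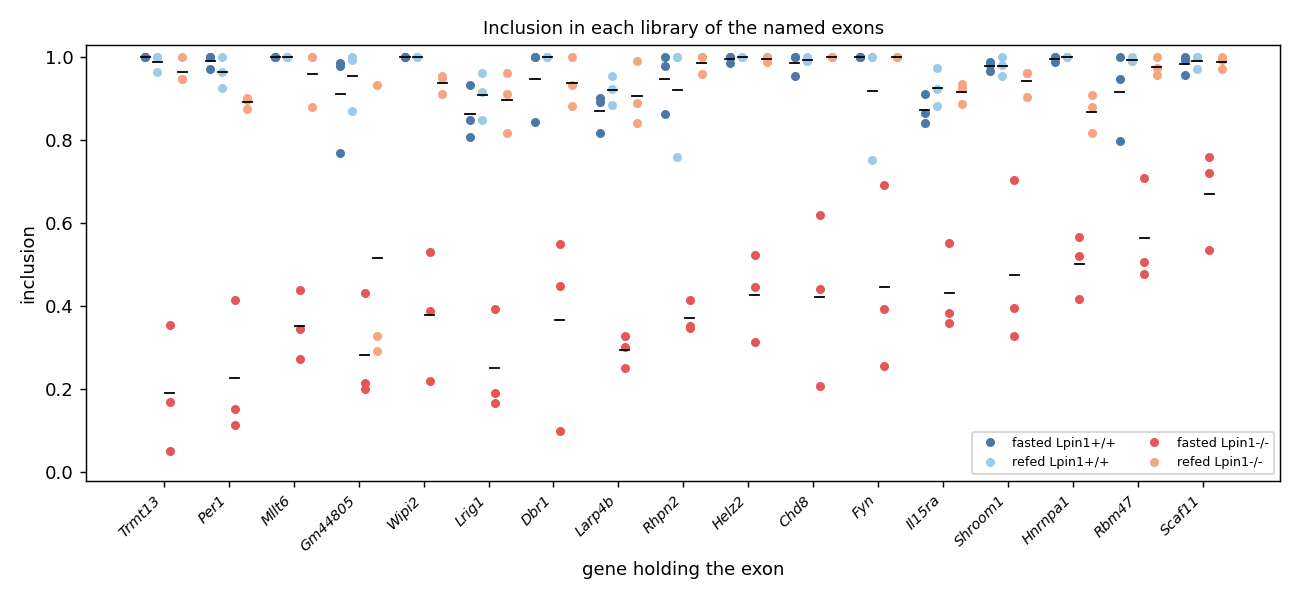
Inclusion in each of the 12 libraries for 17 named exons, with 1 point per library, a black line at each group mean and colours for the 4 groups. The fasted Lpin1-/- points lie below the fasted Lpin1+/+ points for every gene shown. Gm44805 alone keeps 2 refed Lpin1-/- libraries near the fasted level, at 0.328 and 0.291.

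The effect of food in Lpin1-/- liver was tested as refed against fasted Lpin1-/-. This contrast shares its 3 fasted Lpin1-/- libraries with the fasted genotype contrast, so each is given by its own values. In refed liver 391 members (5.59%) were called higher, on 387 exons of 320 genes, and 16 (0.229%) lower, beside 5.16% and 2.15% of all events. The share called higher was thus close to that of all events. Of the 391, 17 had a mean under 1 skipping read in fasted Lpin1-/- liver, beside 53 of all 1468 events called higher. Rises of at least 0.1 made up 184 members (2.63%), beside 2.17% over all events. With thinned reads 247 members (3.53%) were called higher, beside 3.52%. The count was 125 with only the 6 libraries compared, 597 with 1 added to each read count and 688 with precision weights, and it ran from 186 to 596 with single libraries left out. It was 197, 226 and 596 without library 1, 2 or 3 of fasted Lpin1-/- liver, and 186 and 241 without library 2 or 3 of refed Lpin1-/- liver.

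Chd8, a chromatin remodelling helicase, had the largest rise among genes not yet described. Its inclusion was 0.208, 0.442 and 0.619 in fasted Lpin1-/- liver, with 74, 54 and 39 skipping reads, and 1.00 in all 3 refed Lpin1-/- libraries, which had 0 skipping reads (log2 ratio higher by 8.01, SE 0.89, adjusted p = 0.000874, and 0.0556 with precision weights). Fasted Lpin1+/+ liver was at 1.00, 1.00 and 0.954. Gm26590 overlaps this exon. The spread between libraries was widest in fasted Lpin1-/- liver.

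Fyn, a Src family tyrosine kinase, followed with 0.255, 0.392 and 0.692 in fasted and 1.00 in each refed Lpin1-/- library (adjusted p = 0.00468). Refed Lpin1+/+ liver was not uniform, since 1 of its libraries was at 0.752 with 5 skipping reads. Il15ra, the alpha chain of the interleukin-15 receptor, rose from 0.384, 0.359 and 0.553 to 0.926, 0.935 and 0.887 (adjusted p = 0.00519), and was at 0.911, 0.842 and 0.866 in fasted Lpin1+/+ liver. Shroom1, an actin-binding protein, rose from 0.328, 0.396 and 0.703 to 0.963, 0.962 and 0.903 (adjusted p = 0.00764). GENCODE M21 does not list the boundaries of this Shroom1 exon. In all 3 genes the lowest refed library lay above the highest fasted library, which the criteria for naming them required.

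Against refed Lpin1+/+ liver, refed Lpin1-/- liver kept some skipping, given here as a description. In 294 members (4.2%) the 3 refed Lpin1-/- libraries had skipping reads and the 3 refed Lpin1+/+ libraries had 0, with 26 the other way round. Over all events these counts were 747 (2.63%) and 80, and over mostly included exons that shift the frame 437 (4.04%) and 41. Hnrnpa1 and Per1 were among the named exons with an inclusion below 0.9 in refed Lpin1-/- liver, at means of 0.868 ± 0.047 and 0.891 ± 0.014 (SD, n = 3 each).

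Exons that moved the other way did so by small amounts. Ces3a, a liver carboxylesterase, was the 1 exon that met the criteria for a rise in fasted Lpin1-/- liver. Its inclusion was 0.988, 0.948 and 0.977 in fasted Lpin1+/+ liver, with 61, 208 and 102 skipping reads, and 0.999, 1.00 and 1.00 in fasted Lpin1-/- liver with 5, 2 and 1 (adjusted p = 0.000847). Carboxylesterase genes are near-identical neighbours, so reads could have been shared among them, and the exon also overlaps Gm45724. The exon's boundaries are not listed in GENCODE M21.

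Falls on refeeding were smaller than the rises. Polr2c, a subunit of RNA polymerase II, fell from 1.00, 0.996 and 1.00 in fasted to 0.976, 0.946 and 0.963 in refed Lpin1-/- liver (adjusted p = 0.0161). Zfp207, a spindle assembly factor, fell by 0.036 (adjusted p = 0.0491) while its RPKM was 2.48 higher on the log2 scale (SE 0.16, adjusted p = 2.67e-05). Sar1b, a GTPase of vesicle export from the endoplasmic reticulum, fell by 0.013 (adjusted p = 0.0409). Mat1a, which makes S-adenosylmethionine, fell by 0.00196 (adjusted p = 0.0218), at an exon whose boundaries GENCODE M21 does not list. Of 17 alternative fits, Zfp207 and Sar1b passed in 4 each, Mat1a in 11 and Polr2c in 14.

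Gene lists chosen with earlier results of these data known were then counted. RNA processing and splicing genes had 162 member events, of which 43 (26.5%) in 33 genes were called lower in fasted Lpin1-/- liver and 1 higher, beside 14.7% of all members. The median difference in inclusion over the list was -0.00972, beside -0.00387 over all members and -0.00150 over all events. Mean skipping over this list was 1.78% in fasted Lpin1+/+ liver, 6.50% in fasted Lpin1-/- liver and 2.42% in refed Lpin1-/- liver, where 27 events (16.7%) were called higher than in the fasted state, beside 5.59% of members and 5.16% of all events. Chromatin and transcription regulators had 24 of 111 events (21.6%) lower, with mean skipping of 2.05%, 7.96% and 3.14% in the same order and a median difference of -0.0259. On refeeding 16 of their events (14.4%) were called higher, so the refed share of RNA processing genes was not particular to them.

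Phospholipid synthesis genes had 10 of 43 events (23.3%) called lower in fasted Lpin1-/- liver, in 10 genes, and 2 (4.65%) called higher on refeeding. The shares over all members were 14.7% lower and 5.59% higher on refeeding, and over all events 11.3% and 5.16%, so the refed share of this list was below both. For insulin and MAPK signalling 15 of 78 (19.2%) were lower, and for membrane traffic and cytoskeleton 21 of 154 (13.6%), which is near the share over all members. The median differences of these 3 lists were -0.00595, -0.0127 and -0.00877. After refeeding, 4 signalling events (5.13%) and 9 membrane traffic events (5.84%) were called higher. Fatty acid oxidation had 32 of 168 lower (19%), but with small changes. Its mean skipping was 0.292% in fasted Lpin1+/+ and 0.915% in fasted Lpin1-/- liver, and its median difference was -0.00053. On refeeding 1 of its events (0.595%) was called higher and 2 lower. Of the genes that the study named as ESRP2 targets, 6 had a member, with 13 events. Of these events 1 was called lower and 0 higher on refeeding, with a median fasted difference of -0.00784. They are any member exons of those genes and were not matched to the exons that the study measured. The study singled these genes out of known targets by their change in these samples, so the count is not independent evidence. ESRP2 is an epithelial splicing regulator that sets the adult splicing pattern of liver. Members called higher in fasted Lpin1-/- liver were 1 in membrane traffic and none in the other 5 lists outside RNA processing.

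**Figure D5:**
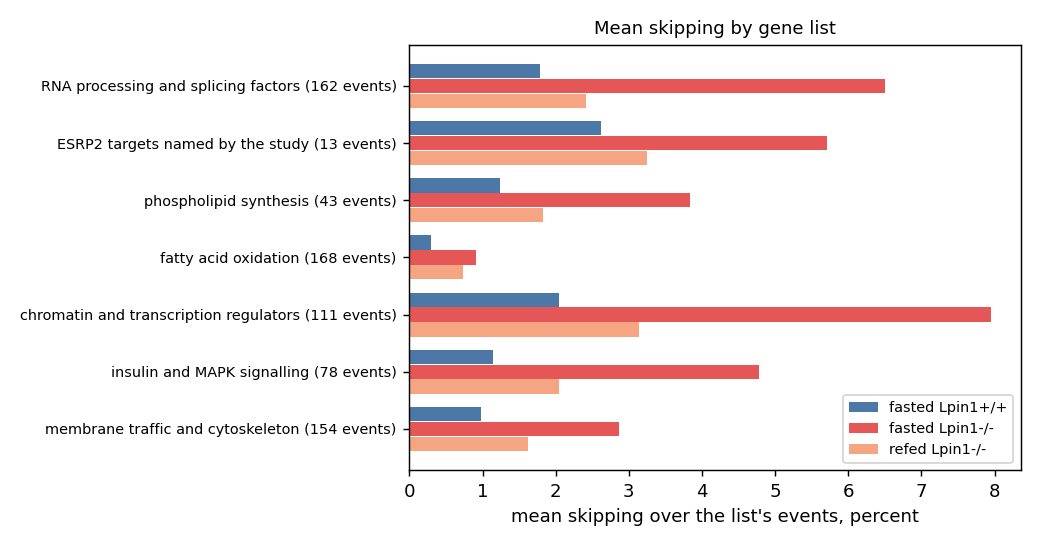
Mean skipping in percent over the member events of each gene list in fasted Lpin1+/+, fasted Lpin1-/- and refed Lpin1-/- liver, with the number of events in brackets. Bars are means over events of the group means and carry no error bar. Chromatin and transcription regulators reached 7.96% and fatty acid oxidation 0.915% in fasted Lpin1-/- liver.

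Of the 3 exons named from the RNA processing list, that of Hnrnpa1, a nuclear RNA-binding protein of splice site choice, differed most. Dbr1, Larp4b and Trmt13 are not in that list. Inclusion was 1.00, 0.989 and 1.00 in fasted Lpin1+/+ liver and 0.521, 0.418 and 0.566 in fasted Lpin1-/- liver, where 90, 140 and 93 reads skipped the exon against 0, 1 and 0 (log2 ratio decreased by 7.47, SE 0.71, adjusted p = 8.01e-05). It passed in each of 17 alternative fits, with adjusted p from 1.09e-11 to 0.00512. Refed Lpin1-/- liver was at 0.817, 0.879 and 0.908, above every fasted Lpin1-/- library and below every Lpin1+/+ library. Hnrnpa1 has processed copies elsewhere in the genome, so some of its reads may be shared with them.

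Rbm47, an RNA-binding protein that assists apolipoprotein B mRNA editing, was at 0.947, 1.00 and 0.798 in fasted Lpin1+/+ and 0.506, 0.476 and 0.708 in fasted Lpin1-/- liver (adjusted p = 0.0172). The call was lost without library 1 or 2 of either group, with adjusted p of 0.0566 and 0.0735 for Lpin1+/+ and 0.0582 and 0.0595 for Lpin1-/-. Scaf11, an SR-related protein that binds splicing factors, fell from a mean of 0.983 ± 0.0234 to 0.671 ± 0.12 (SD, n = 3 each, limma adjusted p = 0.0047). Both were above 0.95 in every refed Lpin1-/- library. The Rbm47 exon has boundaries that GENCODE M21 does not list.

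In the phospholipid list, Chkb, a choline kinase of phosphatidylcholine synthesis, was at 0.996, 0.979 and 0.970 in fasted Lpin1+/+ and 0.713, 0.717 and 0.836 in fasted Lpin1-/- liver, with 106, 112 and 63 skipping reads in the latter (adjusted p = 0.00155). Its boundaries are annotated only in a noncoding transcript in GENCODE M21, and the exon overlaps Gm44502. Lpin3, a relative of lipin 1 with the same phosphatase activity, had 3, 6 and 1 skipping reads in fasted Lpin1-/- liver and an inclusion of 0.587, 0.543 and 0.940 there, and did not pass (adjusted p = 0.061). Without library 3 of fasted Lpin1-/- liver its adjusted p was 0.00343. Dgka, a kinase that makes phosphatidic acid from diacylglycerol, was at 0.939, 1.00 and 1.00 against 0.813, 0.832 and 0.926 (adjusted p = 0.0458), and passed in 6 of 17 alternative fits.

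The ESRP2 list gave 3 named exons. Vegfa, a growth factor of blood vessels, was at 0.853, 0.934 and 0.898 in fasted Lpin1+/+ and 0.690, 0.719 and 0.791 in fasted Lpin1-/- liver, which did not overlap but did not pass the test (adjusted p = 0.068), with adjusted p from 0.00722 to 0.197 over 17 alternative fits. Epb41, a membrane skeleton protein, fell by 0.039 (adjusted p = 0.0319), and passed in 11 of 17. For Nf2, a growth-suppressing membrane linker, the groups overlapped, with means of 0.874 ± 0.074 and 0.839 ± 0.085 (SD, n = 3 each, limma adjusted p = 0.701).

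Features of the exons that the rule did not use were then compared, without a test. Of the 6213 member exons, 4655 (74.9%) had boundaries listed in GENCODE M21, and 90.8% of these were wholly coding, beside 58.3% and 79.3% for all exons of this length range. The junction that skips the exon was annotated for 1320 member events (18.9%) and for 219 of the 1032 called lower (21.2%), beside 45% of all events. Among the 27 members at 0.5 or less in fasted Lpin1-/- liver it was annotated for 17 (63.0%). Exons called lower had a median length of 123 bases and a median GC content of 53.5%, beside 114 bases and 49.6% for the other members.

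3 hexamers were searched in the transcribed strand of annotated exons only. TGGTGG, a word of the kind that ESRP proteins bind, occurred in 8.89% of exons called lower and 8.03% of the others, beside 7.43% of all exons. TGGGAA occurred in 7.48% and 6.34%, beside 6.63%. GGAGGA occurred in 13.1% and 8.03%, beside 8.62%, and the GC content also differed between these groups. Overlapping occurrences of these words were counted once per exon. Among the printed exons, TGGTGG occurs in Per1, Dbr1 and Chd8, and TGGGAA in Fyn. Neighbouring introns were not analysed here.

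Levels of the host genes were read from the same libraries, and the requirement of 10 reads per event in every library kept only genes expressed in all groups. Of 3450 host genes tested in RPKM, 545 (15.8%) were lower and 161 (4.67%) higher in fasted Lpin1-/- than in fasted Lpin1+/+ liver, beside 13.2% and 5.63% of all 11507 genes. Among the 755 host genes of exons called lower, 153 (20.3%) were lower and 30 (3.97%) higher. On refeeding of Lpin1-/- mice, 639 host genes (18.5%) were higher and 60 (1.74%) lower, beside 17.8% and 2.92% of all genes. The median of all genes differed by -0.14 on the log2 scale between fasted genotypes and by 0.25 on refeeding. Rescaling each library by its median ratio moved these to -0.04 and 0.06, with 428 host genes lower (12.4%) and 215 higher (6.23%) between fasted genotypes, beside 11.4% and 7.92% of all genes. On refeeding 362 were then higher (10.5%) and 106 lower (3.07%), beside 11.0% and 4.97%. How far host gene level bears on the exon calls was not tested.

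Members nearest the threshold and non-members just outside it show where the rule divides. The 3 lowest members had refed Lpin1+/+ means of 0.901 (Agfg1), 0.901 (Ezh2) and 0.901 (Wee1), and their fasted Lpin1-/- means were 0.679, 0.845 and 0.798. The 3 exons just below had refed Lpin1+/+ means that round to 0.90 (Anks3, Ppp6r3 and Ube2q2), and fasted Lpin1-/- means of 0.512, 0.845 and 0.958.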

How the data were processed

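Liver RNA of 12 mice was sequenced as stranded paired-end libraries of 69 bases. The study aligned reads with HISAT2 2.0.5 to GRCm38, counted genes with HTSeq 0.6.0 and called exon events with rMATS. Other, event-level values in the deposited tables are whole-number inclusion and skipping reads, as the authors' rMATS runs gave them, for 3 libraries in a cell without replicate numbers. The authors deposited gene levels as RPKM. Columns of the authors' own fold changes, p-values and differences were not used.

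The fasted table (84592 events) and the refed table (75694) were joined on coordinates, strand and flanks (34416 events), and 28447 had at least 10 reads in every library. The lists were tied to groups by comparing reads with another deposited table, where all 1524 fasted and all 1719 refed Lpin1+/+ events in common were identical. Reads were divided by effective length (exon length plus 68 for inclusion, 68 for skipping). limma 3.58.1 (R 4.3.3) was fitted to log2 ratios with 0.5 added to each count, as means of 4 groups, and to log2(RPKM + 1), with a variance trend, where a gene's mean reached 0.5 RPKM. In simulated data of 28447 events, 200 members were changed in fasted Lpin1-/- liver. They were drawn from the 1225 members with a mean of at least 5 rarer-form reads. Of 200 changed 8-fold, 64 were recovered with 2 false calls, and 0 of 200 changed 4-fold or 2-fold. Calls can thus be incomplete. These rates do not carry over to the data, where most members had fewer rarer-form reads and more events were called than were changed here.

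The members and gene lists were chosen with earlier results of these data known. Named exons came from 1 event per exon, that with the most reads of the rarer form. They had to be called, with groups that did not overlap and a mean of at least 10 rarer-form reads in the group of lower inclusion. The 10 largest falls and up to 4 rises between fasted genotypes were taken, 1 exon a gene, then the 4 largest rises and 4 largest falls on refeeding of genes not yet named. Added without these criteria were the 3 largest absolute fasted differences in each of 3 lists (RNA processing, ESRP2 targets, phospholipid synthesis) and the 3 exons on either side of the threshold. P-values rest on the spread between libraries within groups, pooled over all 4 groups of 3. limma draws this spread toward that of all events or genes. The pool includes the refed Lpin1+/+ libraries that chose the members. Intron and protein sequences were not used here, and sequences are printed for 5 of the named exons.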

Additional observations from a re-analysis of the deposited data

How the results depend on the processing

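Neither median difference of the members changed direction under any alternative that recomputed it. Counts have no direction and were compared by size. Single-library omissions gave 679 to 1260 members lower and 11 to 22 higher between fasted genotypes, 186 to 596 higher and 5 to 18 lower on refeeding, medians of -0.00422 to -0.00216 and 0.000386 to 0.00162, 112 to 157, 606 to 761 and 251 to 292 members at 0.9 or less in fasted Lpin1+/+, fasted Lpin1-/- and refed Lpin1-/- liver, and 321 to 774 and 309 to 961 host genes called. Omissions that moved the smaller counts over 1.5 times were library 3 of fasted Lpin1+/+ and 1 of fasted Lpin1-/- liver for members higher (11 and 12), library 1 of fasted and 2 and 3 of refed Lpin1-/- liver for members lower on refeeding (9, 5 and 8), and, for host genes, replicate 3 of fasted Lpin1+/+ and 1 of fasted Lpin1-/- liver (321 and 470) and replicates 1 and 2 of fasted and 1, 2 and 3 of refed Lpin1-/- liver (366, 461, 460, 309 and 399). Adding 1 to each count gave 34 higher (fasted) and 597 higher (refed). Precision weights gave 688 higher and 29 lower on refeeding, and thinned reads 247 and 29. The 6 libraries compared alone gave 125 higher and 4 lower on refeeding and 298 host genes in the fasted contrast. A difference of at least 0.1 gave 324 lower and 2 higher (fasted), and 184 higher and 0 lower (refed). A mean of 5 rarer-form reads gave 480 lower (fasted) and 133 higher (refed), medians of -0.0124 and 0.00353, and 64, 295 and 151 members at 0.9 or less. At least 50 reads gave medians of -0.00305 and 0.000877 and 48, 346 and 128 members, and at least 20 reads a refed median of 0.00112. A threshold of 0.95 gave a refed median of 0.00115 and 50 and 122 members at 0.9 or less in fasted Lpin1+/+ and refed Lpin1-/- liver, and 0.8 gave 352 and 490. With 1 event per exon the refed median was 0.00138. The cause of these shifts was not tested. In some of these alternatives fewer events or libraries entered.

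No paired analysis was possible for the exon events because the deposited lists carry no replicate numbers. In RPKM, deviations of same-numbered libraries correlated from -0.474 to 0.743, and those of different-numbered libraries from -0.700 to 0.628. With 3 libraries a group this cannot show whether the numbers mark a pairing or a batch. They serve here only as names. The replicate block gave 581 and 580 host genes called in the fasted and refed contrasts, beside 706 and 699. Depth limits the skipped form most, since the median member had 0 to 1 skipping reads per library.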

Other observations

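Of the 774 genes with a member exon called lower in fasted Lpin1-/- liver, 614 had exactly 1 such exon, 121 had 2 and 39 had 3 or more. Shroom1 had the most, with all 8 of its 8 member exons called lower. All 5 member exons were called lower in Atg4d, a protease of autophagy, in Cyp2d9, a liver cytochrome P450, in Ncor1, a nuclear corepressor, in Ndrg2, a stress-responsive gene, and in Tfpt. In Slc25a39, a mitochondrial carrier, 5 of 6 were. Genes with 4 were Apoa2 (of 5), Ass1 (of 10), Coq8a (of 5), Cth (of 5), Fah (of 8), Hpn (of 9) and Nr1h3 (of 6). These genes were singled out after their values were seen. Exons of 1 gene that differ only in a boundary share reads, and Cyp2d9 has close paralogues, so the exons of a gene are not independent.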
